A study of Homo sapiens with 21 samples.

Results

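This account covers 49 genes of the lysosome, of autophagy and of the TFEB pathway, taken from a list by gene symbol and matched to Ensembl gene IDs in a table of 37637 features. The list held 28 lysosomal genes, 14 autophagy genes and 7 regulators. All 49 passed the filter on low counts, as did 17468 features in all. The reason for the list, stated with it, was that caffeine is reported to stimulate autophagy in the liver. The cells were HepG2, an established human liver cancer line, and RNA was sequenced after poly(dT) purification. There were 7 groups of 3 libraries, 21 in all, exposed for 6 h to caffeine at 0, 0.01, 0.1, 1, 10, 100 or 1000 µM. The control was the group at 0 µM, labelled untreated. Every group, the control included, had its serum-containing medium replaced by serum-free DMEM for those 6 h, so removal of serum was common to all comparisons. A single cell line was used throughout, and the series text calls the 3 replicates biological.

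Lysosomes are the acidic compartment in which hydrolases break down protein, lipid and carbohydrate. Macroautophagy brings cytoplasm to them: the ULK1 kinase starts the process, the PIK3C3 lipid kinase complex marks the membrane, WIPI proteins read that mark, and ATG8 proteins are attached to the growing membrane by a conjugation system. Receptors such as SQSTM1 (p62) link cargo to ATG8 proteins. The transcription factors TFEB and TFE3 activate many genes of both systems through a short palindrome, CACGTG, often within a longer palindrome. When nutrients are plentiful the kinase mTORC1 holds these factors in the cytoplasm, with the help of the Rag GTPases and of folliculin (FLCN) with its partners FNIP1 and FNIP2. In liver cells this system takes part in the breakdown of lipid droplets and in the answer to fasting. TFEB activity is set largely by phosphorylation and location, neither of which an RNA measurement shows.

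The letters of 5 promoters are given first because they differ in this palindrome: MCOLN1, GAA and LAMP1 are lysosomal members that hold it, and ULK1 and WIPI1 are autophagy members that do not. Each run is RefSeq sequence of GRCh38.p14, 5′ to 3′ on the strand of the gene, starting 200 bases before the annotated start, with CACGTG in capitals. They lie at chr19:7522424-7522623 (MCOLN1, plus strand), chr17:80101381-80101555 (GAA, plus), chr13:113297039-113297238 (LAMP1, plus), chr12:131894422-131894621 (ULK1, plus) and chr17:68457514-68457696 (WIPI1, minus). Those of GAA and WIPI1 end 26 and 18 bases before the start, where annotated exons begin.
MCOLN1: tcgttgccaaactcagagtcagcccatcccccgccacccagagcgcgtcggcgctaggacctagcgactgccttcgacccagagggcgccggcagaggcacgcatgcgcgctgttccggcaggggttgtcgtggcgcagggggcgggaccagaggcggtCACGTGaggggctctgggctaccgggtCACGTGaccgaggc
GAA: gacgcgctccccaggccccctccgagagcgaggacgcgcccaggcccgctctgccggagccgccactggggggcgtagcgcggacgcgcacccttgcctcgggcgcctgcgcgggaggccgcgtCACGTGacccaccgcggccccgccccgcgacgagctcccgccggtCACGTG
LAMP1: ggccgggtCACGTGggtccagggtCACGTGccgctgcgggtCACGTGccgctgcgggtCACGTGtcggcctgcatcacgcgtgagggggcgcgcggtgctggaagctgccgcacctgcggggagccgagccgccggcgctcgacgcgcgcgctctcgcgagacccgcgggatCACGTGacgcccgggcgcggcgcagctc
ULK1: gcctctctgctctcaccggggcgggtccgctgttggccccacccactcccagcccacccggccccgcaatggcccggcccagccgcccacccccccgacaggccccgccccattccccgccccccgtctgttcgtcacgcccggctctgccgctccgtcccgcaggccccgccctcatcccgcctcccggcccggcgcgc
WIPI1: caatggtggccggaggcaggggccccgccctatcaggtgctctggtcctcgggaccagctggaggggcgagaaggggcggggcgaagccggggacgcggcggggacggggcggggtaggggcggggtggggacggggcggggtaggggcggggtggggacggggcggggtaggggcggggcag
MCOLN1 and GAA each hold 2 copies here and LAMP1 holds 5, with a further copy across its start; ULK1 and WIPI1 hold none.

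Over windows from 250 bases before to 50 after a RefSeq start, CACGTG stood in 2548 of 35116 windows of all genes (7.26%). Of the 49 members, 38 had at least 1 window, and 11 of those 38 held the motif in at least 1 (28.9%), or 11 of their 55 windows. By group these were 8 of 19 lysosomal members, 1 of 13 autophagy members (ATG14) and 2 of 6 regulators (RRAGC and FNIP1). The longer TCACGTGA stood in 0.98% of all windows and in 5 members, all lysosomal (MCOLN1, GAA, CTSA, LAMP1 and ATP6V0D1). TCACGTGA with a G before it and a C after it stood in 0.353% of all windows and in 2 members, MCOLN1 and GAA. The 3 motifs are palindromes, so 1 search covers both strands, and each longer one contains the shorter. No window was matched for RRAGD, LAMP2, CTSB, HEXA, ASAH1, PSAP, ATP6V1A, ATP6V1B2, ATP6V1C1, ATP6V1H and UVRAG. A match describes letters in these windows, not binding, and a window without one says only that these letters are not in it.

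Libraries held between 28043623 and 40827833 counts (median 32497612). One library stood apart from its group: the SD over genes of its deviation from the group mean (log2) was 0.492 for 0.01 µM replicate 1, against 0.248 to 0.427 for the other libraries. It enters the tests with the 3 lowest doses directly, and all other tests through the spread estimated over the 21 libraries. The next highest values, 0.427 and 0.422, were those of 1 µM replicates 3 and 1, and the remaining libraries reached at most 0.345. Without 0.01 µM replicate 1 and 1 µM replicate 3 together, 23 members passed the threshold used below at 1000 µM against 0 µM, in place of 14. Results that turn on 0.01 µM replicate 1 are given below. All 12 hepatocyte markers listed were detected in every library, with ALB at 136053 to 246486 counts. Of 5 leukocyte markers, PTPRC and CD3E reached at most 1 count, ITGAM at most 3 and CD14 47, while LYZ had 27878 to 49382 counts in every library. Summed endothelial markers had 1 to 14 counts. Summed counts of 5 fibroblast and stellate markers were 124 to 149 at 0 µM and 278 to 359 at 1000 µM. Nearly all came from PDGFRB, with COL1A2 at 0 and COL3A1 at 0 to 1 counts in every library.

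At the highest dose 5 of the 14 autophagy members rose, led by GABARAPL1 and ULK1, while 8 did not pass. At 1000 µM against 0 µM, 6 of 14 passed an adjusted p of 0.05 (edgeR quasi-likelihood test, Benjamini-Hochberg over all 17468 features): GABARAPL1, ULK1, SQSTM1, WIPI1 and ATG9A rose and ATG7 fell. That is 42.9%, near the 41.2% of all features tested, of which 20.6% were higher and 20.6% lower. The median log2 fold change of the 14 was 0.17, against -0.03 over all features. For all 49 members the count was 14 (11 higher and 3 lower, 28.6%), with a median of 0.02, against 41.2% and -0.03 over all features. In these bulk libraries a large change in some cells and a smaller change in every cell cannot be told apart.

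GABARAPL1, an ATG8 family protein attached to autophagosome membranes, stood at 11.9, 10.5 and 11.3 CPM (counts scaled to a common library total) in the libraries at 0 µM and at 31.2, 42.8 and 37.1 CPM at 1000 µM. Every 1000 µM library lay above every other library of the study, which ran from 9.04 to 12.4 CPM. The fitted log2 fold change was 1.72 ± 0.11 (SE), or 3.29-fold, with an adjusted p of 6.55e-09. The gene lies at chromosome 12, 10212458 to 10223130 of GRCh38, plus strand. Its near-identical copy GABARAPL3 had at most 2 counts in any library. The other ATG8 members did not pass: MAP1LC3B gave 0.07 ± 0.15 (adjusted p 0.734) and GABARAP -0.32 ± 0.20 (adjusted p 0.21). Per kilobase of annotated exon, GABARAPL1 went from 2.75 to 9.06 CPM, and GABARAP, the most abundant of the 3, from 54.5 to 43.8.

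ULK1, the kinase that starts autophagosome formation, stood at 16.7, 19.3 and 18.6 CPM at 0 µM and at 60.2, 39.1 and 44.5 CPM at 1000 µM. The 1000 µM libraries lay above all others, whose highest was 24.6 CPM. Its log2 fold change was 1.40 ± 0.17 (adjusted p 8.06e-06). It occupies chromosome 12 from 131894651 to 131923167 on the plus strand, and no annotated exon of another gene overlaps its own.

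SQSTM1, the cargo receptor p62, stood at 308, 317 and 323 CPM at 0 µM and at 538, 577 and 519 CPM at 1000 µM. The libraries of the doses between ran from 208 CPM (0.01 µM replicate 1) to 342 CPM (1 µM replicate 3), below all 3 at 1000 µM. The log2 fold change was 0.79 ± 0.12 (adjusted p 5.31e-05), over chromosome 5, 179806398 to 179838078, plus strand. WIPI1, which binds the lipid made at the forming autophagosome, stood at 49.2, 46.8 and 44.8 CPM at 0 µM and at 65.9, 76.3 and 76.1 CPM at 1000 µM. No library at another dose exceeded 50.8 CPM. Its log2 fold change was 0.63 ± 0.09 (adjusted p 5.07e-05), over chromosome 17, 68420948 to 68457513, minus strand. GABARAPL1, ULK1, SQSTM1 and WIPI1 passed under each of the 15 alternatives run on this comparison.

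**Figure D1:**
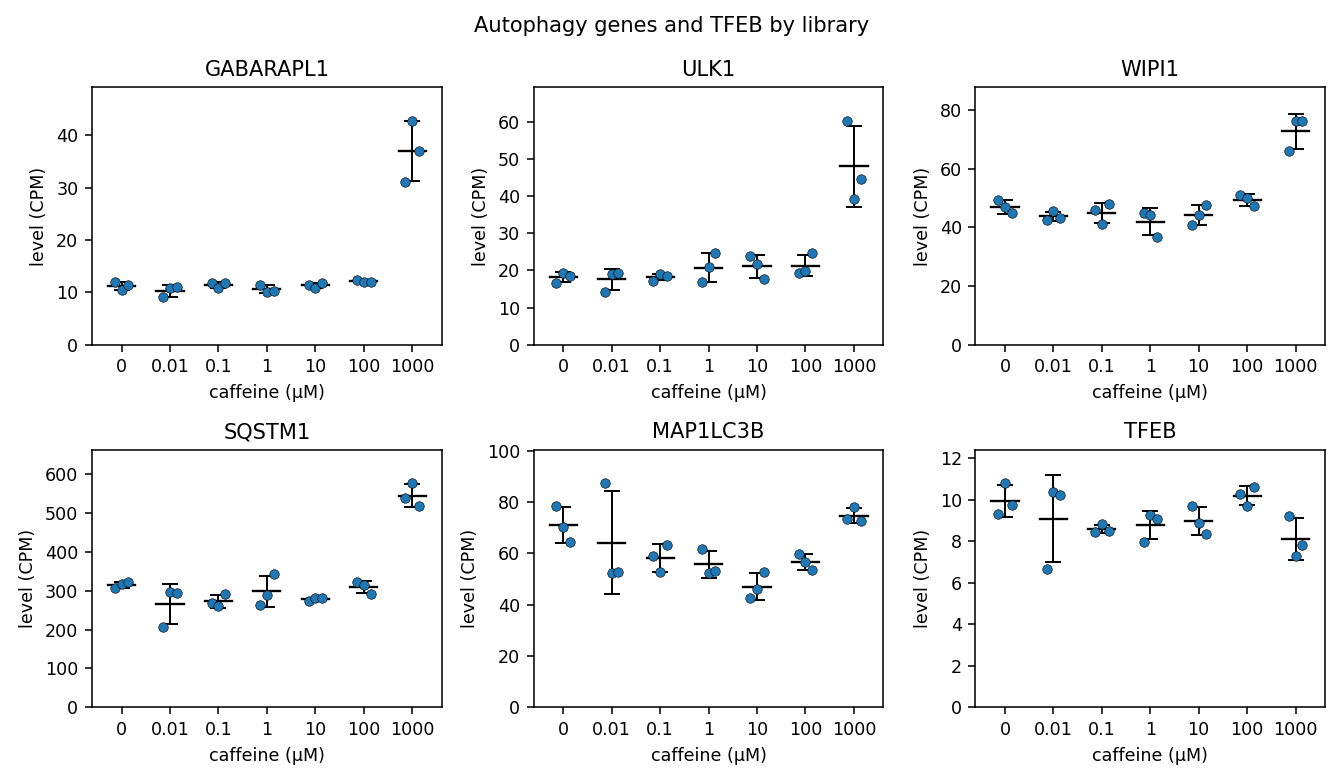
Level of 6 members (CPM) in each library by caffeine dose (µM), with the group mean and SD (bars, n = 3). GABARAPL1, ULK1, WIPI1 and SQSTM1 at 1000 µM lie above all libraries of the other doses, while MAP1LC3B and TFEB at 1000 µM lie within the range of the others.

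ATG9A, the membrane protein of the vesicles that seed autophagosomes, stood at 106, 86.4 and 100.5 CPM at 0 µM and at 129, 116 and 126 CPM at 1000 µM, without overlap. Its log2 fold change was 0.34 ± 0.09 (adjusted p 0.00759), and the call was lost without 0 µM replicate 2 (adjusted p 0.0535). ATG7, the enzyme that activates ATG8 and ATG12 for conjugation, stood at 17.3, 16.5 and 15.8 CPM at 0 µM and at 12.7, 13.6 and 11.7 CPM at 1000 µM. Its log2 fold change was -0.38 ± 0.12 (adjusted p 0.014), lost without 0 µM replicate 1 and without 1000 µM replicate 3. Against 0.01, 0.1 and 1 µM together ATG7 did not pass (-0.21, adjusted p 0.105). MAP1LC3B (LC3B), the ATG8 protein used most as an autophagosome marker, stood at 78.4, 70.4 and 64.6 CPM at 0 µM and at 73.5, 78 and 72.7 CPM at 1000 µM, which overlap. Its copy MAP1LC3B2 had at most 13 counts in any library. The remaining autophagy members, BECN1, UVRAG and ATG14 of the lipid kinase complex and ATG5, ATG12 and ATG16L1 of the conjugation system, ran from 0.00 (BECN1) to 0.26 (ATG14) in log2 fold change and did not pass. ATG14 passed by DESeq2, with the compared groups alone and without 0.01 µM replicate 1 and 1 µM replicate 3. UVRAG passed without 1000 µM replicate 1, and ATG5 with a correction for gene length and GC content. By step, 3 of 6 initiation genes rose, 1 of 4 conjugation genes fell, 1 of 3 ATG8 genes rose and the receptor rose. Over all features, 20.6% were called higher and 20.6% lower.

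Of the 7 regulators, 3 rose at 1000 µM against 0 µM (42.9%, against 41.2% of all features called and 20.6% called higher), with a median log2 fold change of -0.05. TFEB itself stood at 9.30, 10.8 and 9.73 CPM at 0 µM and at 9.21, 7.26 and 7.80 CPM at 1000 µM. Its groups did not overlap, which held for 53.2% of all features, and its log2 fold change of -0.30 ± 0.14 did not pass (adjusted p 0.0934). Without 0.01 µM replicate 1 and 1 µM replicate 3 together it did (adjusted p 0.0297). TFE3, the related factor on the X chromosome, stood at 49, 50.6 and 48.1 CPM at 0 µM and at 65.7, 60.0 and 59.1 CPM at 1000 µM. All 3 libraries at 1000 µM were above those at every other dose, and the log2 fold change was 0.32 ± 0.09 (adjusted p 0.0104).

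FNIP1 and FNIP2, partners of folliculin, rose by similar amounts. FNIP1 stood at 16.2, 15.8 and 19.6 CPM at 0 µM and at 23.0, 22.8 and 28.5 CPM at 1000 µM (log2 fold change 0.52 ± 0.18, adjusted p 0.0248). FNIP2 stood at 24.1, 25.8 and 27.1 CPM at 0 µM and at 34.4, 35.2 and 40.9 CPM at 1000 µM (0.52 ± 0.14, adjusted p 0.00566). Both also ran high at lower doses: FNIP2 reached 41.3 CPM at 0.01 µM and FNIP1 29.6 CPM in the same library, replicate 1. At 1000 µM against 0.01, 0.1 and 1 µM together, FNIP1 (0.17, adjusted p 0.389) and FNIP2 (0.09, adjusted p 0.593) did not pass. Those 3 doses together gave 0.35 for FNIP1 and 0.43 for FNIP2 against 0 µM. At 1000 µM against 0 µM, the call for FNIP1 was lost without 0 µM replicate 1, 0 µM replicate 2 or 1000 µM replicate 3. FLCN (-0.05 ± 0.12) and the GTPases RRAGC (-0.16 ± 0.16) and RRAGD (-0.10 ± 0.55) did not pass. With gene length and GC content corrected, RRAGC did. RRAGD had 2 to 15 counts per library, so a change of that size was not detectable at this depth.

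Lysosomal members passed in both directions. At 1000 µM against 0 µM, LAMP2, NPC1 and ATP6V1C1 rose and CD63 and NEU1 fell, 5 of 28 (17.9%), with a median log2 fold change of -0.11. Over all features, 41.2% were called, 20.6% in each direction, with a median of -0.03. Upper quartile scaling gave 2 higher and 4 lower, and a correction for gene length and GC content gave 3 and 8. The count was 2 without 0 µM replicate 1, 2 without 0 µM replicate 2, 3 without 0 µM replicate 3 and 1 without 1000 µM replicate 3. At 1000 µM against 0.01, 0.1 and 1 µM together, CD63 (-0.03, adjusted p 0.875) and NEU1 (-0.03, adjusted p 0.775) did not pass. Nor did ATP6V1C1 (0.22, adjusted p 0.0579), while LAMP2 and NPC1 did. Those 3 doses together already gave -0.36 for CD63 and -0.25 for NEU1 against 0 µM, and 0.06 for ATP6V1C1.

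Among the membrane proteins, LAMP2, a main glycoprotein of the lysosomal membrane, stood at 108, 96.7 and 101 CPM at 0 µM and at 121, 142 and 145 CPM at 1000 µM. Its log2 fold change was 0.42 ± 0.12 (adjusted p 0.00994). Its relative LAMP1 stood at 295, 293 and 256 CPM at 0 µM and at 229, 283 and 259 CPM at 1000 µM, overlapping (-0.13 ± 0.09, adjusted p 0.271). NPC1, which exports cholesterol from lysosomes, stood at 70.4, 71.4 and 62.9 CPM at 0 µM and at 84.4, 94.3 and 87.3 CPM at 1000 µM (0.38 ± 0.13, adjusted p 0.0243). CD63, a tetraspanin of late endosomes and lysosomes, stood at 190.2, 170.3 and 152 CPM at 0 µM and at 132, 149 and 111 CPM at 1000 µM (-0.39 ± 0.14, adjusted p 0.0329). NPC1 lost its call without 1 of 3 libraries (0 µM replicate 3, 1000 µM replicate 2 or 3) and CD63 without 1 of 4 (replicates 1 and 2 at 0 µM, 1 and 3 at 1000 µM). The channel MCOLN1 gave 0.17 ± 0.12 and did not pass.

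None of the 6 proteases passed in the edgeR fit of all libraries (1 at an unadjusted p under 0.05), against 41.2% of all features. TPP1 passed by DESeq2, with no filter, with at least 10 counts in every library, with the compared groups alone and without 1000 µM replicate 2. Without 0.01 µM replicate 1 and 1 µM replicate 3 together, TPP1, CTSD, CTSL and CTSB passed. CTSL also passed with length and GC content corrected. CTSD, the aspartic protease cathepsin D, stood at 418, 402 and 411 CPM at 0 µM and at 385, 313 and 329 CPM at 1000 µM. These did not overlap, and the log2 fold change of -0.26 ± 0.15 had an adjusted p of 0.168. TPP1 was the highest of the lysosomal members that did not pass, at 0.49 ± 0.20. CTSZ had 2 to 15 counts per library. Of 5 glycosidases, 1 fell: NEU1, the sialidase, stood at 290.5, 288 and 261 CPM at 0 µM and at 216, 254 and 221 CPM at 1000 µM (-0.28 ± 0.09, adjusted p 0.0186). The NEU1 call was lost without replicate 1 or 2 at 0 µM, or replicate 1 or 3 at 1000 µM. GLA and HEXA passed with length and GC content corrected. The lipid hydrolases LIPA and ASAH1 and the cofactors NPC2 and PSAP gave no call in the edgeR fit of all libraries or by DESeq2, and none at an unadjusted p under 0.05. In alternative fits LIPA and ASAH1 passed with length and GC content corrected, LIPA without 0.01 µM replicate 1 and 1 µM replicate 3, and NPC2 without 1000 µM replicate 2. NPC2 was the lowest of the lysosomal members, at -0.50 ± 0.24.

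The proton pump that acidifies lysosomes, the V-ATPase, had 1 of 8 members called (12.5%, against 41.2% of all features). ATP6V1C1 stood at 68.5, 65.5 and 63.6 CPM at 0 µM and at 70.1, 82.0 and 87.8 CPM at 1000 µM. The groups did not overlap, and the log2 fold change was 0.28 ± 0.11 (adjusted p 0.0429). Leaving out any of 5 of the 6 libraries, all but 1000 µM replicate 1, ended the call, and so did the replicate block. The other 7 ran from -0.41 (ATP6V1H) to 0.00 (ATP6V1B2) and did not pass in the edgeR fit of all libraries. In alternative fits ATP6V1H passed with upper quartile scaling, with the compared groups alone and without 1000 µM replicate 2. ATP6V0D1 passed with upper quartile scaling and without 1000 µM replicate 1. Both passed without 0.01 µM replicate 1 and 1 µM replicate 3 together. With length and GC content corrected, ATP6V1H, ATP6V0D1, ATP6V1A and ATP6V1B2 passed. Per kilobase of exon, the most abundant members at 0 µM were PSAP (194 CPM), CTSD (131) and CTSB (96.0), and at 1000 µM PSAP (199.9), CTSD (109.5) and CTSB (107). The lowest were RRAGD (0.0473) and CTSZ (0.127).

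**Figure D2:**
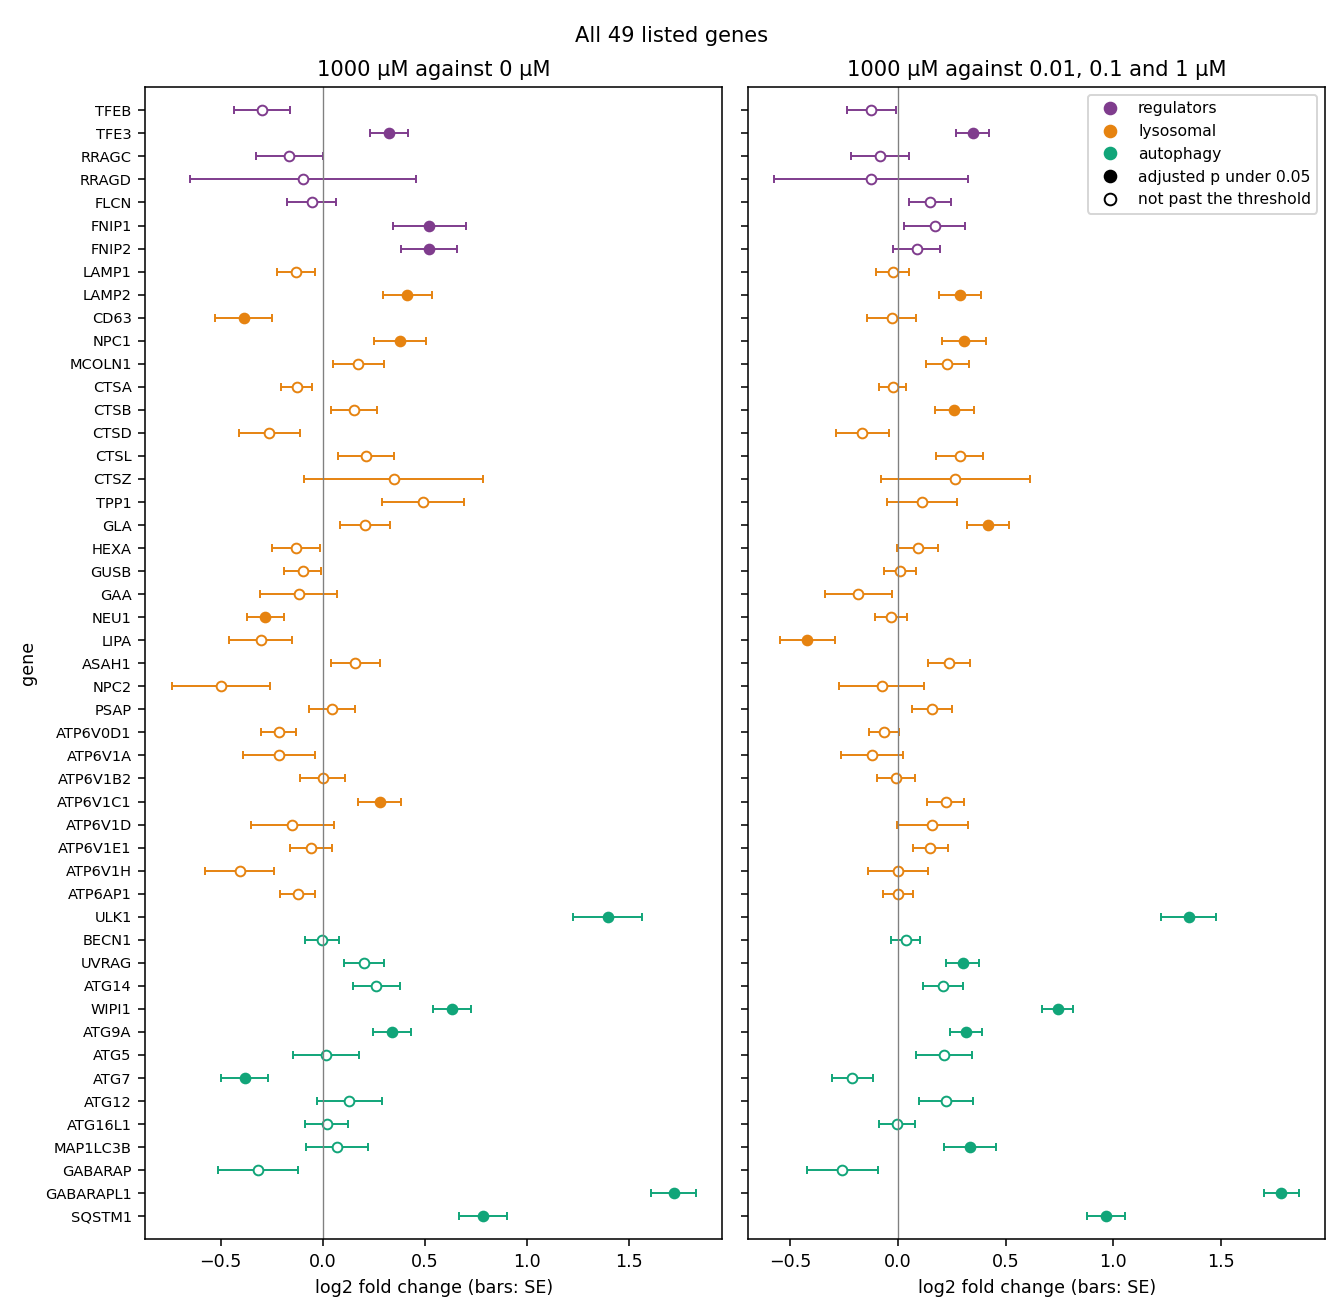
Log2 fold change (bars: SE) of all 49 members at 1000 µM against 0 µM (left) and against the 3 lowest doses (right), coloured as regulators, lysosomal and autophagy genes, filled where the adjusted p is under 0.05. On the left GABARAPL1 at 1.72 and ULK1 at 1.40 stand furthest right, and the lysosomal members lie between -0.50 and 0.49.

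Gene length moved with this comparison. Over 15694 tested genes with an annotated length, the log2 fold change had a Pearson r of 0.315 with log exon length and of -0.295 with GC content. These are descriptions across genes, which share libraries and are not independent. With genes split by length into 4 equal groups, the shortest had a median of -0.38 and the longest 0.26. With both corrected, GABARAPL1, ULK1, SQSTM1 and WIPI1 still passed, whereas LAMP2 gave 0.11, NPC1 0.10, FNIP1 0.13 and FNIP2 0.11 and did not pass, and CD63 and ATP6V1C1 (-0.05) lost their calls too. Of the 5 lysosomal calls NEU1 was kept, and 10 other lysosomal members gained one. The part of length and GC content in those results was not tested further. Exons of other genes overlap 26 of the 49 members on 1 strand or the other. Whether the counting used strand is not given in the sources used here. Among those that passed, overlaps on the opposite strand touch GABARAPL1 (AC115676.1), WIPI1 (ARSG and AC007780.1), SQSTM1 (MGAT4B and MRNIP), ATG7 (VGLL4), NPC1 (RMC1), CD63 (AC009779.2) and ATP6V1C1 (AP003550.1) at 1000 µM against 0 µM. Overlaps on the same strand touch ATG9A (AC068946.2) and FNIP1 (AC008695.1), so reads from the partners may be included.

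The same dose was set against the 3 lowest doses together (0.01, 0.1 and 1 µM, 9 libraries), which had been in the same medium with a little caffeine. Here 13 of 49 members passed, 12 higher and 1 lower (26.5%, against 30.1% of all features), with a median log2 fold change of 0.15. Of the 14 autophagy members 7 rose (median 0.26), and 4 of 28 lysosomal members rose and 1 fell. Among all 17468 features, 2825 (16.2%) were called higher and 2438 lower, with a median log2 fold change of -0.02. This comparison and the previous one share the 1000 µM libraries, so they are not independent. GABARAPL1 gave 1.78 ± 0.08 (adjusted p 2.25e-11), ULK1 1.35 ± 0.13 (3.37e-07), SQSTM1 0.97 ± 0.09 (2.64e-07) and WIPI1 0.74 ± 0.07 (5.15e-07). ATG9A gave 0.32 ± 0.08 (adjusted p 0.00367), UVRAG 0.30 ± 0.08 (0.0069) and TFE3 0.35 ± 0.08 (0.00187). TFEB gave -0.12 ± 0.11 (adjusted p 0.44).

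MAP1LC3B passed here at 0.34 ± 0.12 (adjusted p 0.0449). Its call was lost on leaving out any of 9 of the 12 libraries, those kept being 0.01 µM replicate 1, 0.1 µM replicate 3 and 1 µM replicate 1. Its level in 0.01 µM replicate 1, 87.2 CPM, was above all 3 at 1000 µM, where the other libraries of the lowest doses had 52.3 to 63.3 CPM. UVRAG, a subunit of the lipid kinase complex, stood at 16.7 to 20.1 CPM (median 18.7) in those 9 libraries and at 21.3, 24.2 and 23.7 CPM at 1000 µM.

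Of the lysosomal members, GLA (alpha-galactosidase) gave 0.42 ± 0.10 (adjusted p 0.00324), NPC1 0.31 ± 0.10 (0.03), LAMP2 0.29 ± 0.10 (0.0289) and CTSB (cathepsin B) 0.26 ± 0.09 (0.0366). CTSB lost its call without any 1 of the 3 libraries at 1000 µM, and LAMP2 without replicate 2 or 3 there. NPC1 lost it without 0.01 µM replicate 2 or 1000 µM replicate 2 or 3. All 3 also lost it with upper quartile scaling and with the compared groups alone, and their 2 sides overlapped. GLA kept its call with each library left out. LIPA, the lysosomal acid lipase that hydrolyses cholesteryl esters and triglycerides, fell by 0.42 ± 0.13 on the log2 scale (adjusted p 0.019). LIPA stood at 57.3, 71.8 and 68.6 CPM at 1000 µM and at 71.1 to 129.9 CPM in the 9 libraries, the highest again in 0.01 µM replicate 1, and the 2 sides overlapped. For 17.7% of all features they did not overlap. LIPA lost its call without replicate 1 or 3 at 1000 µM and with the compared groups alone. Upper quartile scaling left 1 higher and 1 lower of the 28, and DESeq2 gave 6 and 1. The lysosomal count was 8 without 0.01 µM replicate 1, 2 without 1000 µM replicate 2 and 1 without 1000 µM replicate 3.

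**Figure D3:**
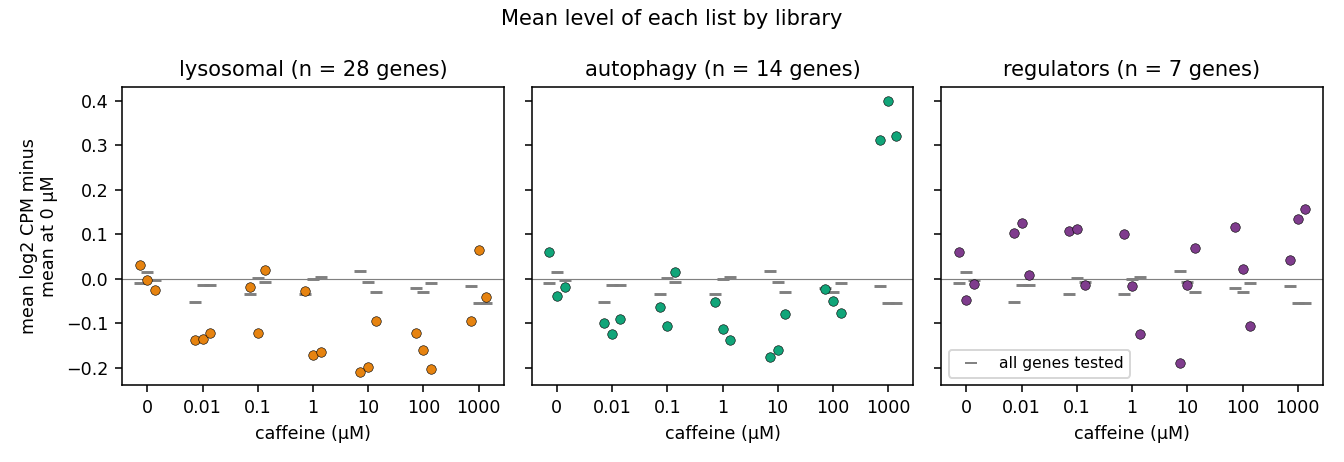
Mean log2 CPM of the autophagy, lysosomal and regulator members in each library, less the mean of the 0 µM libraries, by caffeine dose (µM), with the same over all features tested as dashes. The mean of the autophagy members at 1000 µM lies between 0.31 and 0.40, above the libraries of the other doses (their median overlaps the control), and the lysosomal members at 1000 µM between -0.10 and 0.06.

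As a mean over all 14 autophagy members, the mean log2 CPM at 1000 µM was 0.34 ± 0.05 (SD, n = 3) above that at 0 µM. GABARAPL1, ULK1, SQSTM1 and WIPI1 had the largest changes in that mean, and the other 10 members lay between -0.38 and 0.34 in fitted log2 fold change. The median over the 14 was 0.07, 0.24 and 0.19 in the 1000 µM libraries and 0.08, 0.00 and -0.01 at 0 µM, so by the median the 2 groups overlapped. At the doses between, the mean was -0.11, -0.05, -0.10, -0.14 and -0.05 from 0.01 to 100 µM. The 28 lysosomal members had -0.02 ± 0.08 (SD, n = 3) at 1000 µM and -0.13, -0.04, -0.12, -0.17 and -0.16 at the doses between. The 7 regulators had 0.11 ± 0.06 (SD, n = 3) at 1000 µM, and all features tested -0.04 ± 0.02.

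The step from 100 to 1000 µM, a comparison chosen after the data were seen, showed 6 members higher and none lower (12.2%, against 14.7% of all features, 8.15% being higher). GABARAPL1 rose by 1.61 ± 0.11, ULK1 by 1.17 ± 0.17, SQSTM1 by 0.81 ± 0.12, WIPI1 by 0.56 ± 0.09, NPC1 by 0.43 ± 0.13 and UVRAG by 0.34 ± 0.10 (log2, adjusted p from 4e-08 for GABARAPL1 to 0.0319 for NPC1). Of the 6, all but NPC1 are autophagy genes. For 36.8% of all features the libraries of these 2 doses did not overlap.

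At 100 µM against 0 µM, 2 of 49 members passed, both lower (4.08%, against 6.02% of all features, 2.74% being higher and 3.27% lower), and 10 had an unadjusted p under 0.05. LAMP1 fell by 0.33 on the log2 scale (adjusted p 0.0449), with libraries at 226, 223 and 223 CPM. ATP6V1H, a regulatory subunit of the proton pump, fell by 0.68 (adjusted p 0.0319), from 40.4, 39.8 and 35.9 CPM to 25.7, 26.1 and 20.9 CPM. For 43.0% of all features the libraries at 100 µM and 0 µM did not overlap. The count of members that passed went to 0 on leaving out any of 5 of the 6 libraries, and to 3 without 0 µM replicate 3.

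At 10 µM against 0 µM, 11 members passed, 2 higher and 9 lower (22.4%, against 22.0% of all features, 11.3% being higher and 10.7% lower). FNIP2 (0.55) and TPP1 (0.61) rose. Of the lysosomal members, NPC2 (-0.87), ATP6V1H (-0.84), ATP6V1D (-0.61), CD63 (-0.43), HEXA (-0.38), NEU1 (-0.33) and ATP6V1E1 (-0.33) fell. Of the 14 autophagy members 2 fell (14.3%), MAP1LC3B (-0.60) and ATG5 (-0.48), with MAP1LC3B at 42.5, 46.2 and 52.6 CPM, below all 3 control libraries. For 45.8% of all features the libraries at 10 µM and 0 µM did not overlap. In this comparison the shortest of the 4 length groups of all genes had a median of -0.26 and the longest 0.19. The count was 1 without 0 µM replicate 1, 2 without 10 µM replicate 1, 3 without 0 µM replicate 2 and 3 without 10 µM replicate 2.

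At the 3 lowest doses together against 0 µM, 2 members passed (8.80% of all features did, 4.95% higher and 3.86% lower): FNIP2 rose by 0.43 (adjusted p 0.03) and NEU1 fell by 0.25 (adjusted p 0.0414). The comparisons at 10 µM, at 100 µM and at the lowest doses share the 3 control libraries. For 6.42% of all features the lowest doses and the control did not overlap. The count of 2 fell to 0 without the first or the second control library, the first at 0.1 µM or the second at 1 µM. It fell to 1 without the third library at 0 or 0.01 µM or the second at 0.1 µM, and was 4 without the first at 0.01 µM and 5 without the first at 1 µM. Across the 7 groups in a single test, 9 members passed (28.1% of all features did): TFE3, GLA, ATP6V1H, ULK1, WIPI1, ATG9A, MAP1LC3B, GABARAPL1 and SQSTM1. That count was 16 without 0.01 µM replicate 1, 17 without 1 µM replicate 1, 5 without 0 µM replicate 1, 6 without the second control library and 5 without 1000 µM replicate 3.

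**Figure D4:**
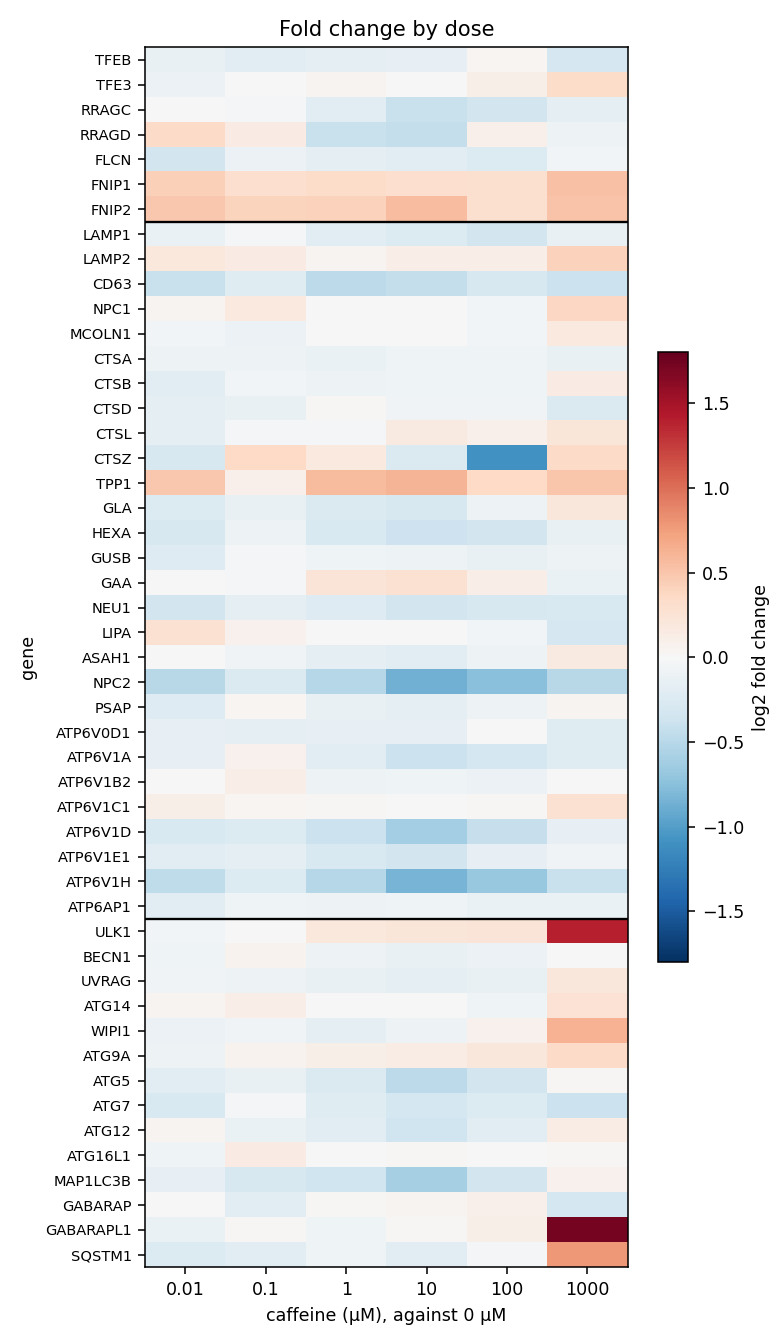
Log2 fold change against 0 µM of all 49 members (rows, in the order regulators, lysosomal, autophagy) at each caffeine dose (columns, µM), on a colour scale from blue (lower) to red (higher). GABARAPL1, ULK1, WIPI1 and SQSTM1 are pale up to 100 µM and red at 1000 µM. Within their own rows ATP6V1H and NPC2 are darkest blue at 10 µM (-0.84 and -0.87). The lowest value of the map is that of CTSZ at 100 µM (-1.096), a gene with 2 to 15 counts per library.

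A wider list of 135 other genes of the same systems, of which 128 were tested, gave 46 calls at 1000 µM against 0 µM, 22 higher and 24 lower (35.9%, median log2 fold change -0.02), against 41.2% of all features called, 20.6% higher and 20.6% lower. The other autophagy genes had 12 of 43 higher and 5 lower, and the other lysosomal genes 7 of 68 higher and 14 lower. Of 8 other cargo receptors, 5 rose. NBR1, a receptor that acts with SQSTM1, went from 122 ± 6.5 to 222 ± 14 CPM (SD, n = 3 in each group). Its log2 fold change was 0.87 ± 0.08 (adjusted p 2.99e-07). TAX1BP1, another receptor, gave 0.73 ± 0.10 (adjusted p 3.25e-05).

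Of 15 other initiation genes, 5 rose and none fell (33.3% called, against 20.6% of all features higher and 20.6% lower). RB1CC1 (FIP200), the scaffold of the ULK1 complex, went from 46.8 ± 3.8 to 108 ± 21 CPM (SD, n = 3 in each group), a log2 fold change of 1.21 ± 0.16 (adjusted p 1.67e-05). PIK3C3, the catalytic subunit of the lipid kinase, gave 0.68 ± 0.10 (adjusted p 4.82e-05). ATG2B, which moves lipid into the forming membrane, gave 0.65 ± 0.14 (adjusted p 0.0014) against 0 µM and 0.17 (adjusted p 0.282) against the 3 lowest doses.

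On the other side, 3 subunits of Ragulator, the complex that anchors the Rag GTPases to the lysosome, fell: LAMTOR2 by 1.31 ± 0.19 on the log2 scale (adjusted p 4.83e-05), LAMTOR1 by 0.76 ± 0.13 (adjusted p 0.000219) and LAMTOR4 by 0.72 ± 0.22 (adjusted p 0.0148). Against the 3 lowest doses LAMTOR4 did not pass (adjusted p 0.145), and the libraries of LAMTOR2 overlapped. LAMTOR2 was also called lower than at 0 µM at the 3 lowest doses together (-0.62), at 10 µM (-0.96) and at 100 µM (-0.87). LAMTOR1 and LAMTOR4 did not pass in those comparisons. The other subunits did not pass against 0 µM: LAMTOR3 gave 0.30 ± 0.14 (adjusted p 0.0925) and LAMTOR5 -0.37 ± 0.19 (adjusted p 0.123). Against the 3 lowest doses LAMTOR3 rose by 0.34 ± 0.11 (adjusted p 0.0292). ARSA, the lysosomal arylsulfatase A, fell by 0.87 ± 0.12 (adjusted p 2.05e-05). TECPR1, which takes part in fusion of autophagosomes with lysosomes, fell by 0.76 ± 0.09 (adjusted p 8.42e-06). Of 9 other lipid and nucleic acid hydrolases, 5 fell (55.6%, against 20.6% of all features called lower). Annotated exons of the named genes that rose ran from 7.6 kb (RB1CC1) to 15.2 kb (PIK3C3). Those of the named genes that fell ran from 1.4 kb (LAMTOR2) to 9.1 kb (TECPR1). The part of length in these changes was not tested.

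Set against these changes, and counting only members with a window, the CACGTG motif stood in 1 of 9 that rose at 1000 µM against 0 µM (FNIP1). It stood in 2 of 3 that fell (CD63 and NEU1) and in 8 of 26 that did not pass. Of the 9 with a window that rose against the 3 lowest doses, 0 held it. Over all genes 7.26% of windows held it, and the counts among members that rose are too small to be told apart from that share. GABARAPL1, with 1 window, and SQSTM1, with 3, held none, as the printed runs of ULK1 and WIPI1 show for those genes. MCOLN1, GAA and LAMP1, whose copies are printed above, gave log2 fold changes of 0.17, -0.12 and -0.13 against 0 µM and did not pass. MCOLN1 did pass in both comparisons with length and GC content corrected, and against the 3 lowest doses without 0.1 µM replicate 3 and without 0.01 µM replicate 1 and 1 µM replicate 3 together.

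**Figure D5:**
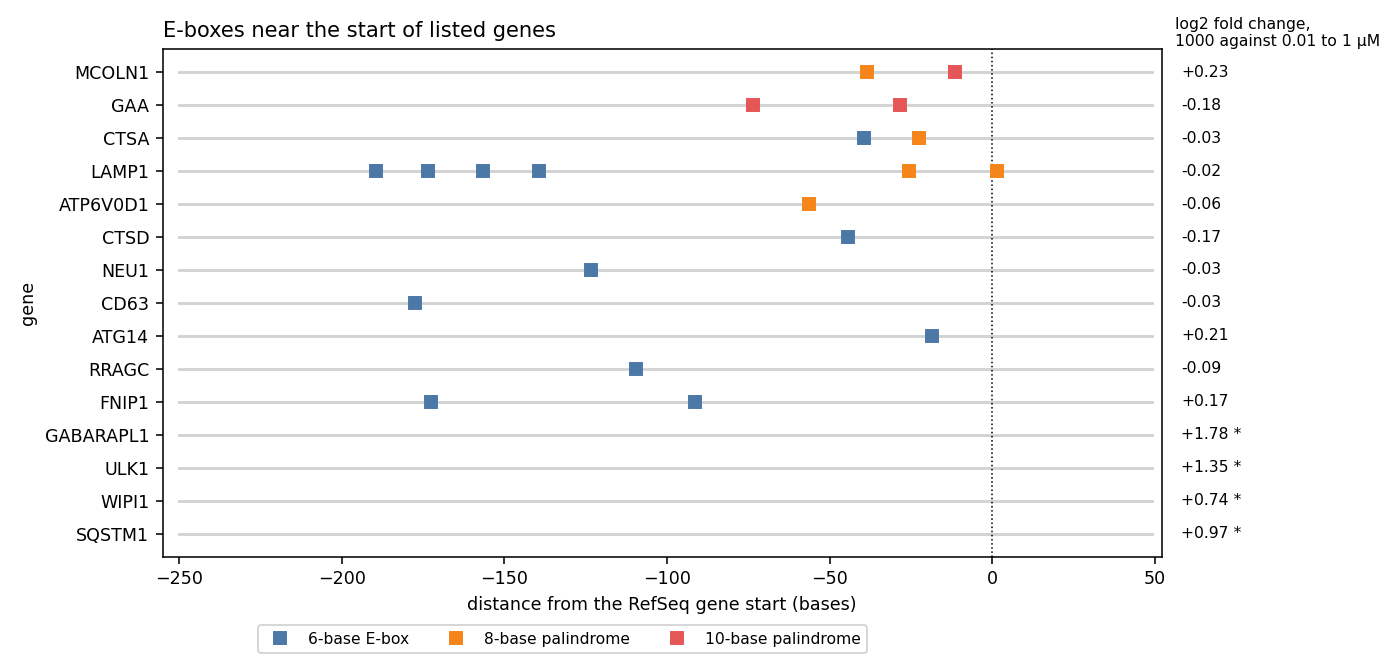
Position of CACGTG copies relative to the annotated start (bases) in the windows of 15 members, with the log2 fold change at 1000 µM against 0.01 to 1 µM written at the right (star: adjusted p under 0.05; orange and red: copies within the longer palindromes). The rows are all 11 members with a copy (8 lysosomal genes, ATG14, RRAGC and FNIP1) and GABARAPL1, ULK1, WIPI1 and SQSTM1, whose rows are empty. Other members without a copy are not drawn. Of 38 members with a window 11 held a copy, and of 19 lysosomal ones 8 did.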

How the data were processed

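RNA was sequenced from HepG2 cells at 7 caffeine doses, 3 libraries each. The deposited table holds whole-number counts per feature (32937 Ensembl IDs and 4700 unannotated features) made by the authors. Per the submitters' processing notes, HISAT2, DESeq2 and GRCh38 were used, with no versions or roles. The counting program, its strand setting and the annotation are not given in the sources used here. Of 42 columns of per-sample values, 21 were used and 21 were not, as they match no sample here. Totals ran from 28043623 to 40827833.

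Counts were tested with edgeR 4.0.16 (R 4.3.3): filterByExpr with a minimum count of 10, TMM scaling, and 1 quasi-likelihood fit of 21 libraries in 7 groups (14 residual degrees of freedom, common biological coefficient of variation 0.162), with Benjamini-Hochberg adjustment over 17468 features and a threshold of 0.05. The script was tested on simulated data. CPM uses TMM-scaled totals, and set levels are means of log2 CPM with a prior count of 2. Gene names and exon lengths came from a GRCh38 annotation, promoter windows from RefSeq. Alternatives were DESeq2 1.42.0, upper quartile scaling, no filter, at least 10 counts in every library and a replicate block. Others were the compared groups alone, a threshold of 0.01 and each library left out. A correction for length and GC content, leaving out 2 libraries together and a comparison with 100 µM were chosen after seeing the data. The p-values set differences between doses against the spread between these libraries, all of a single cell line.

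The members and lists were chosen with earlier results of these data known. Values in every library are given for TFEB, TFE3, SQSTM1, MAP1LC3B, LAMP1 and CTSD and, in each role, for up to 3 members with the largest change past the threshold at 1000 µM against 0 µM. Of other pathway genes, up to 5 higher and 5 lower were named, with all libraries beyond the controls and a mean of at least 1 CPM. The libraries given besides these, for ATP6V1H, UVRAG and LIPA, were chosen after they were seen. So were the values of LAMTOR3 and LAMTOR5 and those of LAMTOR2 below 1000 µM. Replicate numbers do not pair the samples: over 63 same-numbered pairs, deviations from group means correlated at -0.437 to 0.249. No 2 libraries of the same dose agreed within counting noise. The series design text names coumarin for the control, and the sample labels, which give caffeine at 0 µM, were followed.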

Additional observations from a re-analysis of the deposited data

How the results depend on the processing

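GABARAPL1, ULK1, SQSTM1 and WIPI1 kept their direction and passed in each of 15 alternatives against 0 µM and 21 against the 3 lowest doses, as did ATG9A in those 21. The counts of called members moved more, and the cause was not tested. Lysosomal members at 1000 µM against 0 µM (5) numbered 3 with no filter, 11 with length and GC content corrected, 12 without 0.01 µM replicate 1 and 1 µM replicate 3 together, 1 at an adjusted p of 0.01, 1 against 100 µM in place of 0 µM, and 1 to 6 with single libraries left out. Regulators (3) numbered 1 at 0.01, 0 against 100 µM and 2 to 3 with single libraries left out, and autophagy members (6) 5 to 7. Against the 3 lowest doses, lysosomal members (5) numbered 2 with upper quartile scaling, 1 with the compared groups alone, 9 without both libraries, 1 at 0.01 and 1 to 8 with single libraries left out, autophagy members (7) 6 to 8 and regulators 1 in each. At 100 µM against 0 µM the 2 members became 4 (DESeq2), 1 (no filter), 1 (replicate block), 12 (compared groups alone), 5 (length and GC), 0 (at 0.01) and 0 to 3 (single libraries left out). At 10 µM the 11 became 6 (no filter), 21 (length and GC), 1 (at 0.01) and 1 to 14. At the lowest doses the 2 became 1 (no filter), 1 (replicate block), 0 (compared groups alone), 8 (length and GC), 4 (without both libraries), 0 (at 0.01) and 0 to 5. Over 7 groups the 9 became 19 (DESeq2), 25 (length and GC), 20 (without both libraries), 4 (at 0.01) and 5 to 17.

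With length and GC content corrected, the sign turned at 1000 µM against 0 µM for CTSD (0.098), ATP6V1C1 (-0.05) and MAP1LC3B (-0.002), and against the 3 lowest doses for FNIP1 (-0.037), FNIP2 (-0.098), CD63 (0.048) and CTSD (0.029). With 1 library left out of the latter comparison it turned for LAMP1 (range -0.09 to 0.066; 0.013 without 1 µM replicate 1, 0.066 without 1000 µM replicate 1), CD63 (-0.125 to 0.076; 0.012 without 0.1 µM replicate 3, 0.029 without 1 µM replicate 1, 0.076 without 1000 µM replicate 3) and NEU1 (-0.1 to 0.026; 0.026 without 1000 µM replicate 1). The replicate block gave 4 lysosomal members (ATP6V1C1 lost) at 1000 µM against 0 µM, 9 at 10 µM and 8 over 7 groups; 5 of 21 libraries correlated best with their own number. RRAGD and CTSZ, at 2 to 15 counts, are limited by depth.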
